A study of Chlamydomonas reinhardtii with 12 samples.

Results

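The target of rapamycin (TOR) complex genes TOR1, RAPTOR and LST8 and the autophagy gene ATG8 were followed in the unicellular green alga Chlamydomonas reinhardtii. They were chosen by gene identifier, and all 4 were found among the 17693 genes of the deposited table. TOR1 is Cre09.g400553_4532.v6.1 on chromosome 9, RAPTOR is Cre08.g371957_4532.v6.1 on chromosome 8, LST8 is Cre17.g713900_4532.v6.1 on chromosome 17 and ATG8 is Cre16.g689650_4532.v6.1 on chromosome 16. The chromosomes are those given by the identifiers, which carry the suffix of release 6.1 of the gene models, and the names are those paired with the identifiers when the genes were chosen. Poly(A) RNA came from wild type and from vip1-1, a strain deficient in inositol pyrophosphates, both labelled CC-1690. Cells in liquid TAP medium at 25 °C received 50 µmol photons m-2 s-1 (control) or 1500 µmol photons m-2 s-1 (high light), and the duration of high light was not stated. Each of the 4 groups had 3 biological replicates. The labels describe vip1-1 by this single allele name only. The level of the gene mutated in vip1-1 was not analysed here.

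TOR is a large protein kinase that promotes protein synthesis and growth and represses autophagy when nutrients and energy suffice. In TOR complex 1 it binds LST8, a WD-repeat protein that associates with the kinase domain, and RAPTOR, the subunit that presents substrates to the kinase. ATG8 is a ubiquitin-like protein that is attached to a lipid of the autophagosome membrane, and its lipidated form is the usual marker of autophagy in this alga. The transcript level measured here is another quantity than that lipidation. In Chlamydomonas, vip1-1 is known for hypersensitivity to TOR inhibitors, which links inositol pyrophosphates to this kinase.

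Levels are given in FPKM (fragments per kilobase of transcript, scaled to the mapped fragments), so they can be compared between genes. LST8 and ATG8 had similar mean levels over the 12 libraries, 12.7 and 12.9 FPKM. TOR1 had a mean of 2.59 FPKM and RAPTOR of 0.324 FPKM. TOR1, LST8 and ATG8 reached 1 FPKM in all 12 libraries. RAPTOR reached it in 1 library and was listed at 0 in 4. Because an exact 0 may stand for an estimate that failed, RAPTOR is described library by library. In RNA from a whole culture, a lower transcript level per cell and fewer cells with the transcript cannot be told apart.

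The libraries differed in scale, which bears on every direction below. The FPKM total of a library ranged from 651369 to 767459, and the number of genes listed at 0 from 1993 to 3958. A value of 0 in one library beside at least 1 FPKM in both other libraries of its group occurred 505 times, of which 177 were in vip1-1 high light replicate 1. Changes were tested with limma on log2(FPKM + 1) over 12575 genes that had at least 1 FPKM in at least 3 libraries, with p-values adjusted over all of them by the Benjamini-Hochberg method and a threshold of 0.05. RAPTOR did not pass this filter. From control to high light the median gene moved by 0.39 on the log2 scale in wild-type cells and by 0.38 in vip1-1 cells. Between the strains, vip1-1 minus wild type, the median was -0.29 in control light and -0.28 in high light. Light and strain changes of the tested genes are therefore also given relative to that median or after each library was centred on its median.

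**Figure D1:**
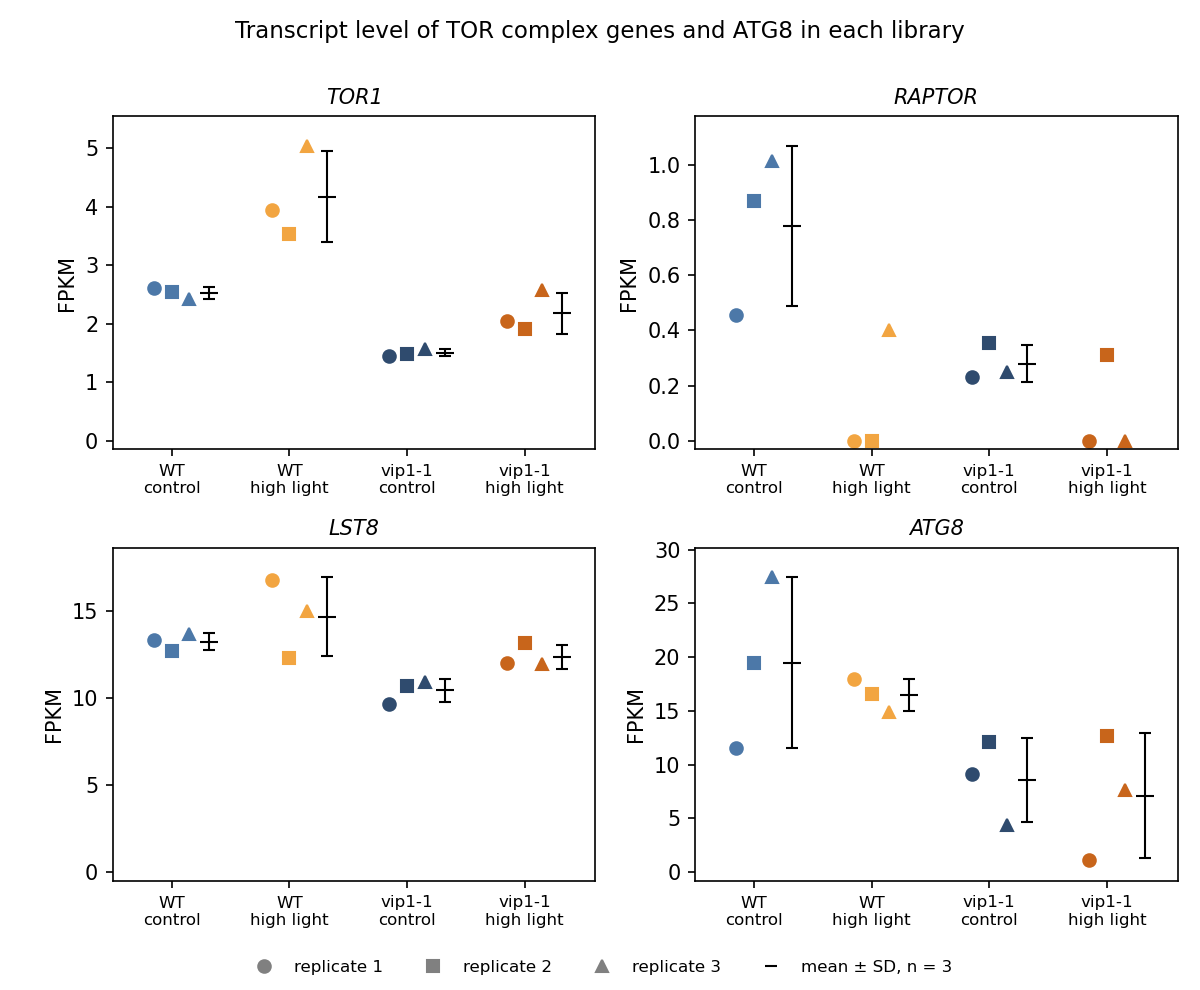
FPKM of TOR1, RAPTOR, LST8 and ATG8 in the 12 libraries, with the replicates of each strain and light level as separate symbols and the mean ± SD (n = 3) in black, left out where a library was listed at 0. TOR1 is lower in vip1-1 than in wild type at each light level without overlap, RAPTOR stayed at or below 1.02 FPKM, and ATG8 ranged from 1.08 to 27.4 FPKM.

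TOR1, which encodes the kinase, was lower in vip1-1 than in wild type in both light levels and higher in high light than in control light in wild type. Wild-type control libraries had 2.62, 2.54 and 2.43 FPKM, and wild-type high light libraries had 3.95, 3.53 and 5.05 FPKM. The vip1-1 control libraries had 1.45, 1.49 and 1.57 FPKM, and the vip1-1 high light libraries had 2.05, 1.91 and 2.57 FPKM. The order of the group means was wild-type high light (4.17 ± 0.78 FPKM, SD, n = 3), wild-type control (2.53 ± 0.096), vip1-1 high light (2.18 ± 0.35) and vip1-1 control (1.502 ± 0.060). Of the neighbours in this order, the pair of wild-type control and vip1-1 high light had overlapping ranges and the other pairs did not. The ranges were apart with high light above control in wild type and in vip1-1, as in 49.8% and 49.1% of all tested genes. They were apart with vip1-1 below wild type in control and in high light, as in 48.1% and 34.7% of those genes.

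High light gave 1.65 times the control level of TOR1 in wild type. On the log2(FPKM + 1) scale, which understates changes of weakly expressed genes, the change was 0.54 (SE 0.13, limma adjusted p = 0.00484). Of all tested genes 58.4% passed the threshold in this comparison, and 44.7% passed it upward, so TOR1 was one of many. Its change lay at percentile 58.5 of all genes and exceeded that of the median gene by 0.15. It was 0.12 after each library was centred on its median (limma adjusted p = 0.436). In vip1-1 the high light level was 1.45 times the control level. The log2 change of 0.34 (95% confidence interval 0.050 to 0.63) did not pass the threshold (limma adjusted p = 0.0587), where 41.5% of genes did. Relative to the median gene it was -0.038. The change was -0.087 after median centring (limma adjusted p = 0.647), so its direction depended on the scaling.

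Between the strains, TOR1 in vip1-1 stood at 0.595 times the wild-type level in control light and at 0.522 times in high light. The log2 difference in control light was -0.49 (SE 0.13, limma adjusted p = 0.0158). In that comparison 32.4% of genes passed the threshold, and 26.0% of genes passed it as lower in vip1-1. The control difference was -0.15 after median centring (limma adjusted p = 0.404), and it missed the threshold without wild-type control replicate 1 or 2 or vip1-1 control replicate 1 (limma adjusted p = 0.0512, 0.0523 and 0.0541). In high light the log2 difference was -0.70 (SE 0.13, limma adjusted p = 0.00159), where 46.4% of genes passed and 34.4% were lower in vip1-1. It remained past the threshold after median centring, at -0.36 (limma adjusted p = 0.0353, where 19.3% of genes were lower in vip1-1). It was just past it under quantile normalization (-0.35, limma adjusted p = 0.0472), where 2606 of 12575 genes passed as lower. Scaling on the FPKM total outside the 1000 most abundant genes gave -0.40 (limma adjusted p = 0.0173), where 2570 of 12575 genes passed as lower. With each library left out it passed too, which was checked on the values as deposited only. In those fits 3494 to 4964 of 12575 genes passed as lower. Relative to the median gene the high light difference as deposited was -0.42, at percentile 27.2 of all genes. The light effect was not shown to differ between the strains, with an interaction (vip1-1 minus wild type) of -0.20 (95% confidence interval -0.61 to 0.21, limma adjusted p = 0.534). The interaction passed the threshold in 8.71% of genes.

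**Figure D2:**
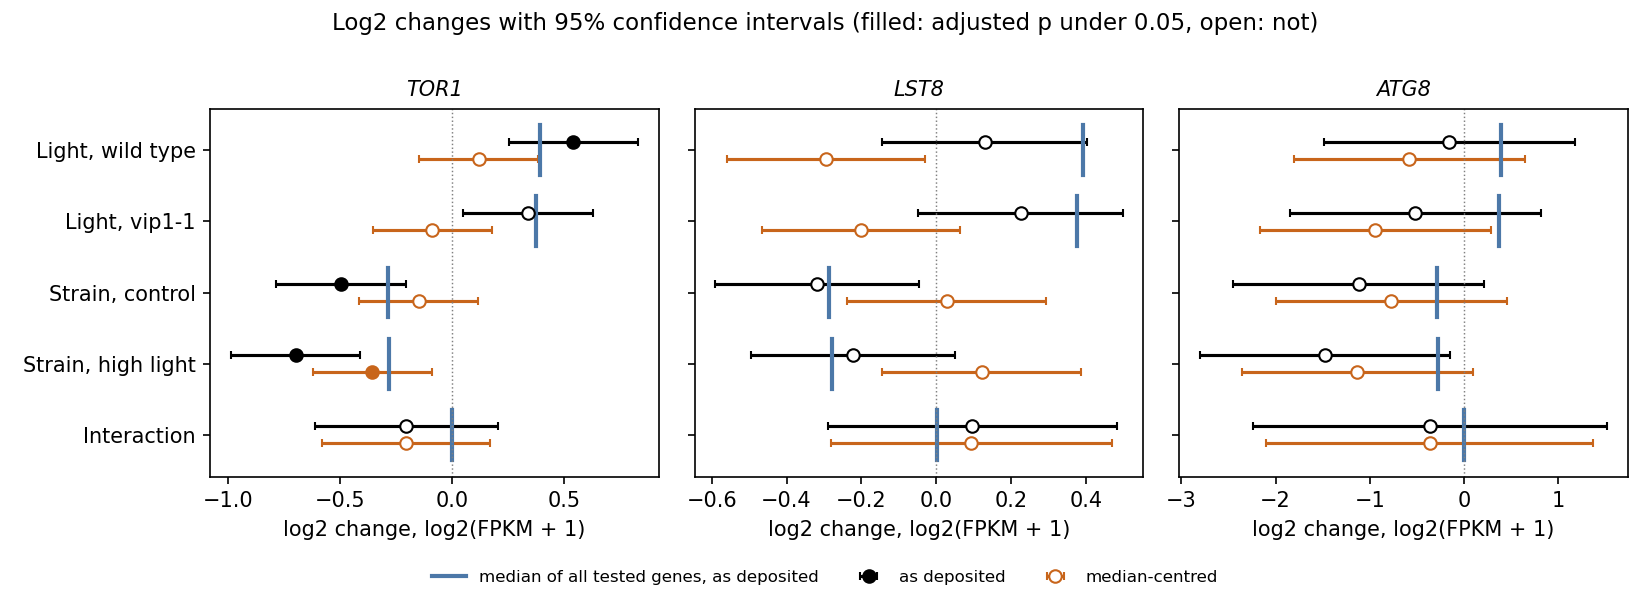
Log2 changes of TOR1, LST8 and ATG8 on the log2(FPKM + 1) scale in the 5 comparisons, with 95% confidence intervals, as deposited (black) and after median centring of each library (orange), filled where the adjusted p was under 0.05. Blue bars mark the median change of all tested genes. TOR1 is filled in 3 comparisons as deposited and in high light between the strains after centring, and the horizontal scales differ between panels.

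The rank of a gene among the 12575 tested genes of its own library does not depend on the scale of that library. For TOR1 the percentiles of the wild-type libraries were 34.5 to 38.8 under high light and 30.1 to 33.8 under control light. Those of vip1-1 were 21.2 to 31.4 under high light and 27.6 to 30.3 under control light. By rank, the wild-type high light libraries were above all others, at 34.5 or more against 33.8 or less. The share of tested genes with ranks likewise apart was not computed. The ranks of both vip1-1 groups overlapped with each other, and those of vip1-1 control and wild-type control overlapped too. The lowest rank, 21.2, was that of vip1-1 high light replicate 2, which had the fewest genes listed at 0 in its group (2466). Replicate 1 of that group, with 3958 such genes, ranked at 31.4.

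**Figure D3:**
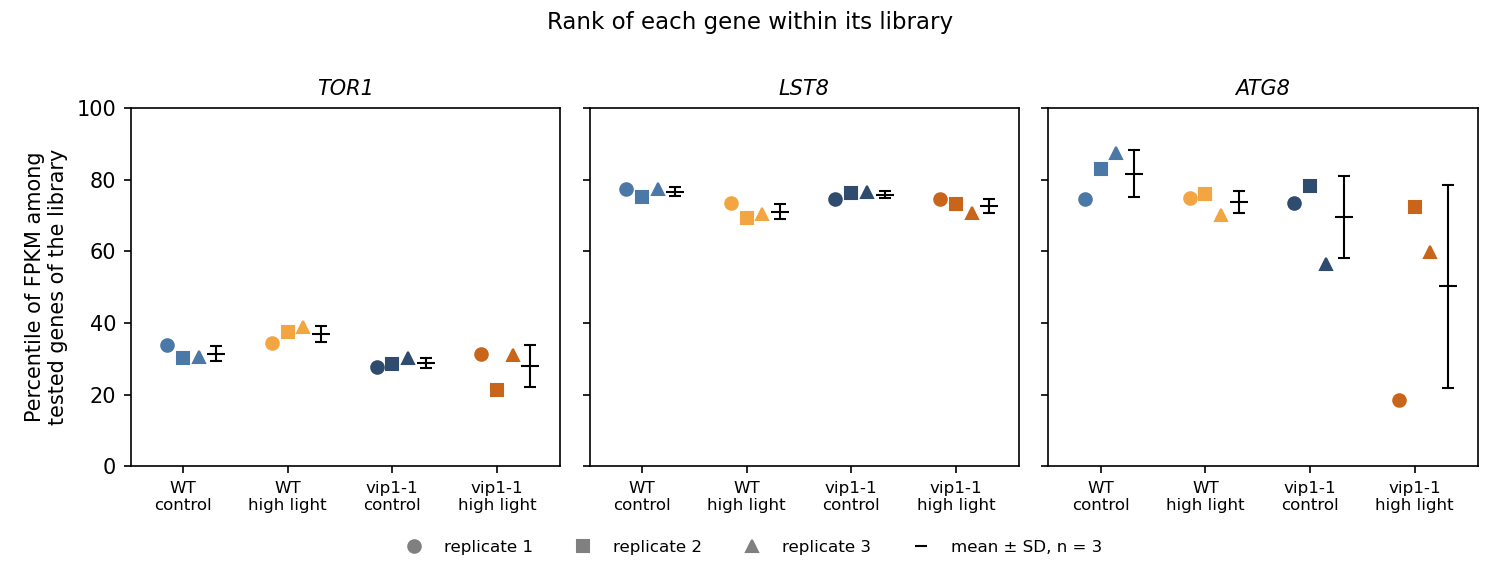
Percentile of the FPKM of TOR1, LST8 and ATG8 among the tested genes of each library, by strain and light level, with the mean ± SD (n = 3) in black. TOR1 ranks highest in wild-type high light, LST8 stays between 69.3 and 77.4, and ATG8 falls to 18.4 in vip1-1 high light replicate 1.

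RAPTOR, the substrate-presenting subunit, was the weakest of the 4 transcripts and was listed at 0 in 2 of 3 high light libraries of each strain. Wild-type control libraries had 0.455, 0.871 and 1.02 FPKM, and vip1-1 control libraries had 0.232, 0.355 and 0.249 FPKM. In high light, wild-type replicate 3 had 0.402 FPKM and vip1-1 replicate 2 had 0.310 FPKM, and the other 2 libraries of each strain were listed at 0. The wild-type control values were above those of both vip1-1 control and wild-type high light without overlap. The first of these held for 48.1% and the second for 16.8% of tested genes. RAPTOR was not among those genes, and the shares for genes as weakly expressed were not computed. The vip1-1 groups overlapped.

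RAPTOR was tested only in the fit without a filter on low values, over 16505 genes. There the light effect in wild type was -0.66 (SE 0.17, limma adjusted p = 0.00862), in a comparison in which 13.1% of genes passed the threshold as lower. Its size depended on the settings. It was -2.30 for a pseudocount of 0.1 (limma adjusted p = 0.0217), where 1981 of 16505 genes passed as lower. It was -0.99 after median centring (limma adjusted p = 0.000266), where 5533 of 16505 genes passed as lower. It passed with each library left out (limma adjusted p from 0.00312 to 0.0399), where 1444 to 2361 of 16505 genes passed as lower. The lowest adjusted p came without wild-type high light replicate 3, which left only values listed at 0 in that group. Every such fit kept a 0 there, so these fits cannot tell whether those values were estimates that failed. The light effect in vip1-1 was -0.22 (95% confidence interval -0.59 to 0.15, limma adjusted p = 0.342) as deposited and -0.61 after median centring of the same fit, where it passed the threshold (limma adjusted p = 0.0163) along with 20.3% of genes lower in high light. The strains differed by -0.47 in control light (limma adjusted p = 0.0619), which passed without wild-type control replicate 1, wild-type high light replicate 3 or vip1-1 high light replicate 2 (limma adjusted p = 0.0297, 0.0327 and 0.0495). In those fits 3369, 3969 and 3807 of 16505 genes passed as lower in vip1-1. In high light the strains differed by -0.033 (95% confidence interval -0.40 to 0.34, limma adjusted p = 0.923). The interaction was 0.43 (95% confidence interval -0.091 to 0.96, limma adjusted p = 0.303).

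In all 4 groups the highest value of RAPTOR was in the library of the group with the fewest genes listed at 0. This held for 4.45% of the tested genes, but RAPTOR was not among them. The share for genes as weakly expressed was not computed. In each high light group that value was the only one above 0. Its lowest value was less regular. It was in the library with the most such genes in wild-type control, was a 0 shared by that library and another in both high light groups, and was elsewhere in vip1-1 control, where replicate 1 (0.232 FPKM) had 3306 such genes and replicate 3 (0.249 FPKM) had 3574. In wild-type high light the library with 0.402 FPKM had 2559 genes listed at 0, and those in which RAPTOR was listed at 0 had 2836 and 3289. In vip1-1 high light the library with 0.310 FPKM had 2466 such genes, against 3958 and 3442. With that number as a covariate in the same fit without a filter, the light effect in wild type was -0.40 (limma adjusted p = 0.0304). In that fit 1438 of 16505 genes passed as lower in wild-type high light. The strain difference in control light was then -0.079 (limma adjusted p = 0.793). The covariate itself was higher in vip1-1 control (2875 to 3574) than in wild-type control (1993 to 2562), so it and the strain cannot be told apart there. In wild-type high light it was 2559 to 3289 and barely overlapped with wild-type control, so it and light can hardly be told apart in wild type.

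**Figure D4:**
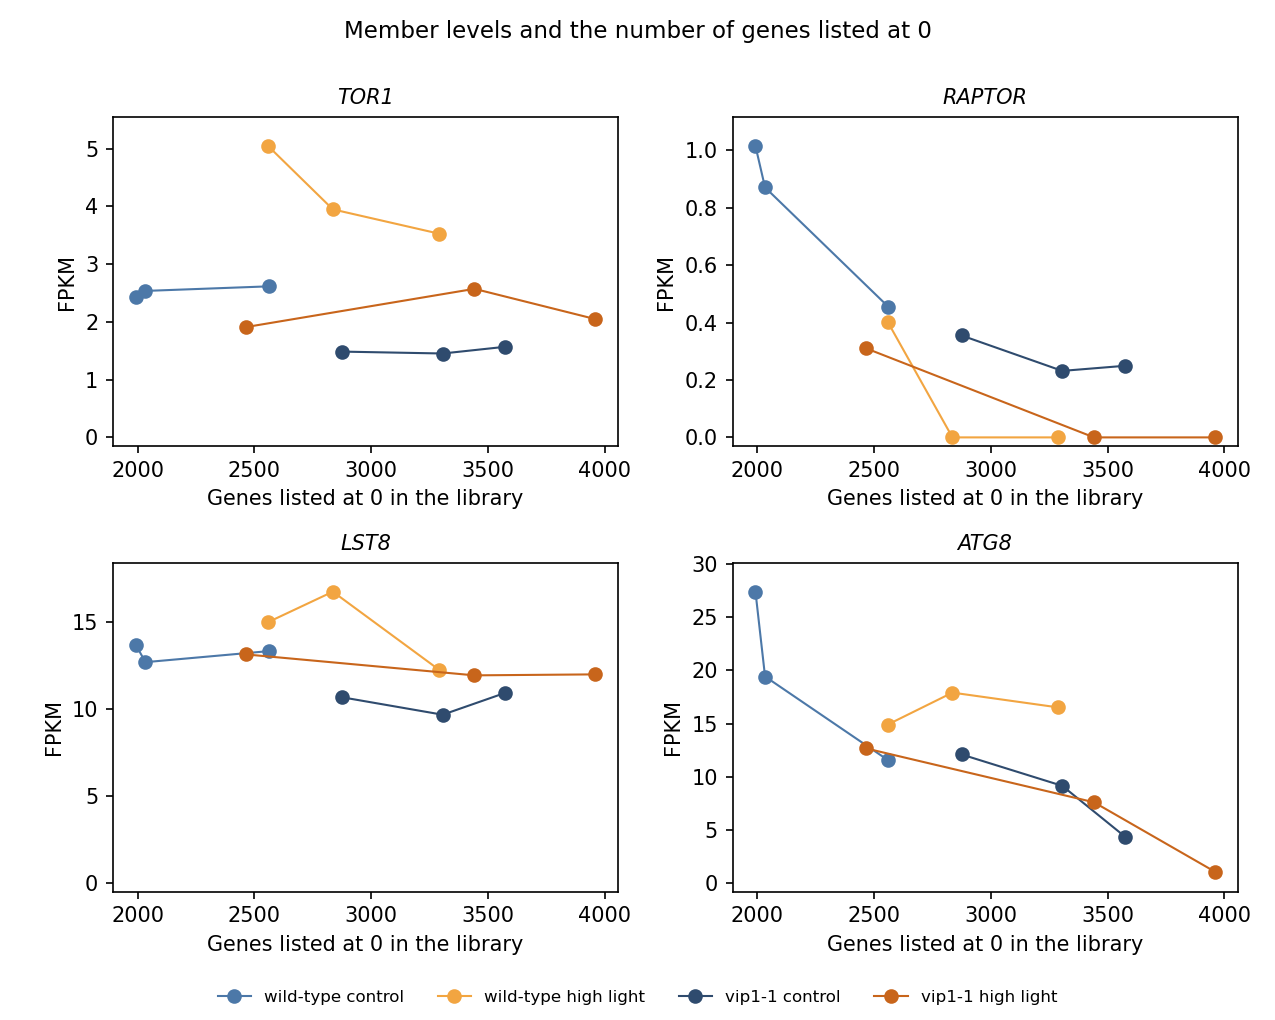
FPKM of the 4 genes against the number of genes listed at 0 in the same library, with the 3 libraries of a group joined by a line. In each group RAPTOR is highest in the library with the fewest genes listed at 0, ATG8 is lowest in the library with the most of them in 3 of the 4 groups, and vip1-1 high light replicate 1 stands at the far right (3958 genes).

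LST8, the WD-repeat partner of the kinase, had the narrowest range, with its highest library at 1.73 times its lowest. Wild-type control libraries had 13.3, 12.7 and 13.7 FPKM, and wild-type high light libraries had 16.8, 12.3 and 15.01 FPKM. The vip1-1 control libraries had 9.68, 10.7 and 10.9 FPKM, and the vip1-1 high light libraries had 12.004, 13.2 and 11.9 FPKM. The order of the means was wild-type high light (14.7 ± 2.26 FPKM, SD, n = 3), wild-type control (13.2 ± 0.50), vip1-1 high light (12.4 ± 0.68) and vip1-1 control (10.4 ± 0.67). The first 3 groups overlapped with their neighbours, and vip1-1 control lay below the other groups without overlap. Of all tested genes, 48.1% were likewise apart with vip1-1 lower in control light, and 49.1% were apart with high light higher in vip1-1.

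None of the 5 LST8 comparisons passed the threshold of limma, and 1 of them had an unadjusted p under 0.05. The log2 difference between the strains was -0.32 in control light (95% confidence interval -0.59 to -0.045, limma adjusted p = 0.0710) and -0.22 in high light (-0.49 to 0.051, limma adjusted p = 0.166). Relative to the median gene they were -0.032 and 0.058. They were 0.028 and 0.12 after median centring. The light effect was 0.13 in wild type (95% confidence interval -0.14 to 0.40, limma adjusted p = 0.388) and 0.23 in vip1-1 (-0.048 to 0.50, limma adjusted p = 0.162). Relative to the median gene they were -0.26 and -0.15. By rank, LST8 was lower in high light (percentiles 69.3 to 73.5) than in control light (75.3 to 77.4) in wild type. Quantile normalization turned the wild-type effect to -0.36 (limma adjusted p = 0.0268), where 2942 of 12575 genes passed as lower. In vip1-1 its percentiles were 74.6 to 76.6 in control light and 70.6 to 74.5 in high light, also without overlap. The share of tested genes with ranks likewise apart was computed for neither strain. Without wild-type high light replicate 2, the lowest of its group, the strain difference passed in control light (-0.32, limma adjusted p = 0.0260) and in high light (-0.34, limma adjusted p = 0.0247). In that fit 3830 and 4964 of 12575 genes passed as lower in vip1-1. The control difference itself was unchanged, and its SE fell from 0.123 to 0.095. The interaction was 0.096 (95% confidence interval -0.29 to 0.48, limma adjusted p = 0.770).

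The ratio of LST8 to TOR1 in the same library is free of the library's scale. In wild type it was 5.25 ± 0.34 under control light and 3.57 ± 0.64 under high light (SD, n = 3). In vip1-1 it was 6.95 ± 0.27 under control light and 5.79 ± 1.12 under high light. The wild-type high light libraries, at 2.98 to 4.24, were below wild-type control (5.01 to 5.65) and below vip1-1 high light (4.64 to 6.88) without overlap. The vip1-1 control libraries, at 6.67 to 7.20, were above wild-type control without overlap and overlapped with vip1-1 high light. These ratios were not tested, and the share of all genes whose ratio to TOR1 was likewise apart was not computed. The FPKM of TOR1 was itself apart in each pair without overlap, so the ratio carries that difference too. The ratio of ATG8 to TOR1 ranged from 0.528 to 11.3, and all 4 groups overlapped in it. RAPTOR stood at 0.174 to 0.419 of the TOR1 level in wild-type control and at 0.159 to 0.239 in vip1-1 control.

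**Figure D5:**
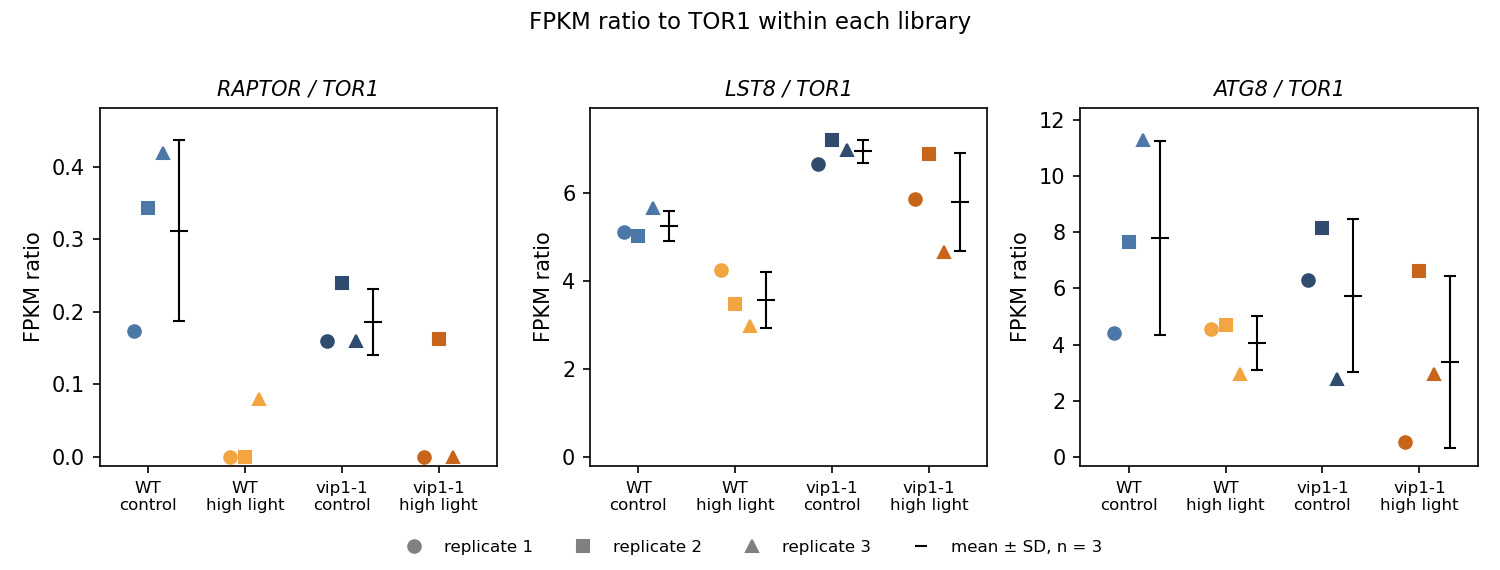
FPKM of RAPTOR, LST8 and ATG8 divided by that of TOR1 in the same library, by strain and light level, with the mean ± SD (n = 3) in black, left out where a library was listed at 0. LST8 per TOR1 is lowest in wild-type high light, at 2.98 to 4.24, and highest in vip1-1 control, at 6.67 to 7.20.

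ATG8, the lipidated ubiquitin-like protein of autophagosomes, had lower means in vip1-1. On the log2(FPKM + 1) scale its SD was above those of TOR1 and LST8 in every group but wild-type high light, where it was below them. Wild-type control libraries had 11.5, 19.4 and 27.4 FPKM, and wild-type high light libraries had 17.9, 16.5 and 14.9 FPKM. The vip1-1 control libraries had 9.15, 12.1 and 4.37 FPKM, and the vip1-1 high light libraries had 1.08, 12.7 and 7.60 FPKM. The order of the means was wild-type control (19.5 ± 7.94 FPKM, SD, n = 3), wild-type high light (16.5 ± 1.51), vip1-1 control (8.54 ± 3.90) and vip1-1 high light (7.12 ± 5.81). Wild-type and vip1-1 libraries were apart in high light, with vip1-1 lower, as in 34.7% of all tested genes. They overlapped in control light, and neither strain's light levels were apart.

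None of the 5 ATG8 comparisons passed the threshold of limma either, and again 1 had an unadjusted p under 0.05. The strains differed by -1.48 on the log2 scale in high light (95% confidence interval -2.81 to -0.15, limma adjusted p = 0.0664) and by -1.12 in control light (-2.45 to 0.21, limma adjusted p = 0.179). These lay at percentiles 5.88 and 7.01 of all genes. Relative to the median gene they were -1.20 and -0.83. After median centring they were -1.13 (limma adjusted p = 0.124) and -0.77 (limma adjusted p = 0.346). As deposited, both calls turned on single vip1-1 high light libraries. Without replicate 2, the highest of them, the high light difference was -2.04 (limma adjusted p = 0.0179), where 4158 of 12575 genes passed as lower. Without replicate 1, the lowest, it was -0.68 (limma adjusted p = 0.206). The control difference then stayed at -1.12 and passed (limma adjusted p = 0.0377), where 3799 of 12575 genes passed as lower. The light effect was -0.15 in wild type (95% confidence interval -1.48 to 1.17, limma adjusted p = 0.837) and -0.52 in vip1-1 (-1.84 to 0.81, limma adjusted p = 0.506). Relative to the median gene these were -0.55 and -0.89. As deposited, the light effect was 0.12 in wild type without wild-type control replicate 3. It was 0.28 in vip1-1 without vip1-1 high light replicate 1, so neither direction held with each library left out. The interaction was -0.36 (95% confidence interval -2.24 to 1.52, limma adjusted p = 0.827).

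The spread of ATG8 within groups was large for its level. Its residual SD was 0.84 on the log2(FPKM + 1) scale, above that of 96.4% of the 500 tested genes closest to it in mean, whose median was 0.23. TOR1 and LST8 had residual SDs of 0.13 and 0.12, each at percentile 8.40 of the 500 genes closest to them. In 3 of the 4 groups the lowest ATG8 value was in the library with the most genes listed at 0, as it was in at least 3 groups for 28.0% of all tested genes. These were wild-type control replicate 1 with 2562 such genes, vip1-1 control replicate 3 with 3574 and vip1-1 high light replicate 1 with 3958. With that number as a covariate, the strain difference of ATG8 was -0.91 in high light (limma adjusted p = 0.0757) and turned to 0.39 in control light (limma adjusted p = 0.642), where covariate and strain cannot be told apart. The same covariate left the high light difference of TOR1 at -0.69 (limma adjusted p = 0.00324), where 4130 of 12575 genes passed as lower in vip1-1.

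The genes whose pattern over the 12 libraries was most like that of each tested gene were found by Pearson's r of log2(FPKM + 1), as a description of groups that differ in scale. For TOR1 these were Cre13.g579250_4532.v6.1 (r = 0.992) and Cre10.g443900_4532.v6.1 (r = 0.988). The first had 2.31 ± 0.26 FPKM under control light and 4.62 ± 1.18 under high light in wild type (SD, n = 3). Its levels in vip1-1 were 1.07 ± 0.052 and 1.92 ± 0.29 FPKM. An r above 0.9 with TOR1 was found for 1684 genes, 13.4% of those tested, so its order of groups was a common one. For LST8 only 72 genes had such an r, led by Cre12.g509400_4532.v6.1 (r = 0.951) and Cre01.g044900_4532.v6.1 (r = 0.949). For ATG8 there were 52, led by Cre02.g092650_4532.v6.1 (r = 0.988) and Cre09.g400100_4532.v6.1 (r = 0.963). The first of these had 14.5 ± 4.90 FPKM under control light and 11.7 ± 2.04 under high light in wild type (SD, n = 3). Its levels in vip1-1 were 6.101 ± 3.48 and 3.75 ± 3.82 FPKM.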

How the data were processed

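The authors deposited a single table of FPKM values, one column per library, per the file headers. The submitters' processing notes name HISAT2 and StringTie, without version, and the genome build and any filter on genes are not given in the sources used here. Columns were matched to samples by library name. Whole reads could not be recovered from low values: among genes at up to 0.15 FPKM, the commonest ratio between libraries took 1.09% to 3.09% of them over 66 comparisons, so the depth is unknown and precision rests on 3 replicates per group. No pair of libraries was identical.

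Values were transformed to log2(FPKM + 1) and fitted with limma 3.58.1 in R 4.3.3, with 4 group means over all 12 libraries, a variance trend and two-sided tests of 5 comparisons. The fit was tested on simulated data that held no shift in scale between groups, so that test does not bear on the differences in scale between these libraries. Summaries and figures used Python 3.11.15 and matplotlib 3.10.9. The 4 genes, their comparisons and the alternatives were chosen with earlier results of these data known. The named genes were these 4 and, for each of the 3 that were tested, the 2 genes of highest Pearson's r. Lists of autophagy, TOR pathway, ribosomal protein and inositol phosphate kinase genes had been planned by gene symbol. Of the identifiers, 15386 matched the gene table of the RefSeq assembly Chlamydomonas_reinhardtii_v5.5, which gives locus tags and no other symbols, so these lists were not used here.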

Additional observations from a re-analysis of the deposited data

How the results depend on the processing

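Under other settings, TOR1 kept its call for the strain difference in high light in every fit that tested it. Its light effect in wild type was not past the threshold after median centring (0.12), quantile normalization (0.22) or scaling on the FPKM total outside the 1000 most abundant genes (0.14). Its strain difference in control light was not past it after median centring (-0.15) or quantile normalization (-0.100), or with the count of genes at 0 as a covariate (-0.48), and with single libraries left out it ranged from -0.52 to -0.48. Its light effect in vip1-1 passed with a pseudocount of 0.1 (0.50) and turned to -0.087 and -0.037 under median centring and quantile normalization. With single libraries left out it ranged from 0.25 to 0.40, passing without wild-type high light replicate 2 or 3. In the fits where it passed, in the order given, 4991, 5396 and 4922 of 12575 genes passed as higher in high light.

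LST8 changed sign under scalings. Under median centring, quantile normalization and scaling outside the 1000 most abundant genes, its light effect was -0.29, -0.36 and -0.35 in wild type (past the threshold under the last 2) and -0.20, -0.20 and -0.15 in vip1-1, and its strain difference in high light was 0.12, 0.10 and 0.13. Under quantile normalization and that last scaling, 2942 and 3202 of 12575 genes passed as lower in wild-type high light. In control light the strain difference of LST8 was 0.028 under median centring. It passed when only the compared groups were fitted (-0.32), where 5365 of 12575 genes passed as lower in vip1-1. With single libraries left out these strain differences ranged from -0.34 to -0.13 in high light and from -0.35 to -0.27 in control light, and the interaction from -0.018 to 0.19.

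With single libraries left out, ATG8 ranged from -0.47 to 0.12 for light in wild type, -1.08 to 0.28 for light in vip1-1, -1.43 to -0.75 and -2.04 to -0.68 for the strains in control and high light, and -0.92 to 0.43 for the interaction. The covariate turned its light effect in wild type to 0.84 (limma adjusted p = 0.119) and its control strain difference to 0.39 (limma adjusted p = 0.642). The covariate can hardly be told apart from light in wild type, nor from strain in control light.

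RAPTOR, not tested with the filter, moved with the pseudocount of 0.1, with or without the filter, to -2.30 for light in wild type (limma adjusted p = 0.0217 without the filter), -1.23 for light in vip1-1, -1.17 for the strains in control light and 1.07 for the interaction. Without the filter alone it was -0.66 for light in wild type. Median centring gave -1.08, -0.65, -0.12 and 0.31 for light in wild type and vip1-1 and for the strains in control and high light. Quantile normalization gave -0.11 for the strains in control light and 0.18 for the interaction, and the covariate gave -0.079 and 0.19.

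The replicate numbers showed no regular pairing of the libraries: 4 of 18 same-numbered pairs had a correlation of deviations over 0.1, and the range was -0.49 to 0.48. Whether same-numbered libraries were handled together cannot be told from these correlations. With a replicate block the difference of TOR1 between the strains in high light was -0.70 (limma adjusted p = 0.00306). In that fit 4110 of 12575 genes passed as lower in vip1-1. No call of the 3 tested genes changed. TOR1 and RAPTOR were left out by the requirement of a mean of 5 FPKM. The planned counts over gene lists were not run, as no symbols were at hand. The pseudocount of 0.1 without a filter and the covariate were chosen after seeing the data.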
